A study of Homo sapiens with 34 samples.

Results

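Cells copy DNA methylation at every division and lay down or remove it at other times, and 8 genes of this machinery were followed in B-cell acute lymphoblastic leukemia (B-ALL) lines after *CCND3* knockdown or palbociclib treatment. The genes were chosen by name and function, with earlier results of these data known. *DNMT1*, *UHRF1* and *HELLS* stand for maintenance, *DNMT3A* and *DNMT3B* for de novo methylation, and *TET1*, *TET2* and *TET3* for oxidation. They are 8 of the 17587 genes listed in at least 1 of the 6 tables, and 7 of them are among the 13307 genes listed in all 6. *TET1* had no row in the knockdown table of BV-173.

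RNA was sequenced in bulk from 34 samples in 12 groups. NALM-6 carries ETV6-PDGFRB, RS4;11 carries MLL-AF4 and BV-173 carries BCR-ABL, so each subtype is represented by 1 line, and *CCND3* was targeted with 1 hairpin. In every line, cells carrying shCCND3 in a lentiviral vector with TagRFP were sorted 4 days after transduction and compared with cells carrying a scrambled shRNA in the same vector, while palbociclib (1 µM, 3 days) was set against DMSO. Groups held 3 samples, except NALM-6 with shCCND3 and BV-173 with DMSO, which held 2 each.

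DNMT1 is the methyltransferase that restores methylation on the new strand behind the replication fork. UHRF1 recognises the hemimethylated sites left by replication and brings DNMT1 to them, and HELLS is a chromatin remodeller that opens nucleosomal DNA to this machinery. DNMT3A and DNMT3B methylate sites that carried no mark. The TET dioxygenases oxidise 5-methylcytosine, the first step of its removal. D-type cyclins such as CCND3 activate CDK4 and CDK6, the kinases that palbociclib inhibits, and these phosphorylate the retinoblastoma protein and so release E2F factors, which drive many replication genes at entry into S phase.

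The deposited tables give 1 level per gene and group, scaled within the pair of groups, so the spread between samples of a group is not seen and the depth per sample is unknown. *CCND3* fell after knockdown, with log2 differences of -2.04, -2.27 and -1.68 in the lines as ordered above (limma SE 0.13, limma adjusted p = 0.00555). In the same order, 24.2%, 20.7% and 31.1% of the scrambled level remained. The mean log2 difference of *CCND3* with palbociclib was -0.35 (SE 0.13, limma adjusted p = 0.126). Every SE given here is moderated by limma, which draws the variance of a gene toward that of genes at a like level. All 11 B-lineage markers checked were listed in every control group, with levels from 135 for *DNTT* to 25143 for *RAG1*. Of the markers of other cells, the T-cell genes reached at most 4.07 (*CD2*), the erythroid *HBB* 0.82 and the epithelial *EPCAM*, *KRT18* and *KRT8* 0.17, 9.003 and 26.4, while the myeloid *LYZ* and *CSF1R* reached 83.3 and 508 and the fibroblast gene *COL1A1* 122. In bulk samples fewer cells of a type and less RNA per cell cannot be told apart, and this holds for every level given here.

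The maintenance genes were lower in all 6 comparisons, and each of them fell after both treatments over the 3 lines. *DNMT3B* fell with them, whereas *DNMT3A*, *TET2* and *TET3* passed the test in neither direction. Palbociclib lowered *DNMT1*, *UHRF1* and *HELLS* further than knockdown did, although these calls rest on how limma models the variance. The plot of the levels by group shows the 8 genes side by side.

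**Figure D1:**
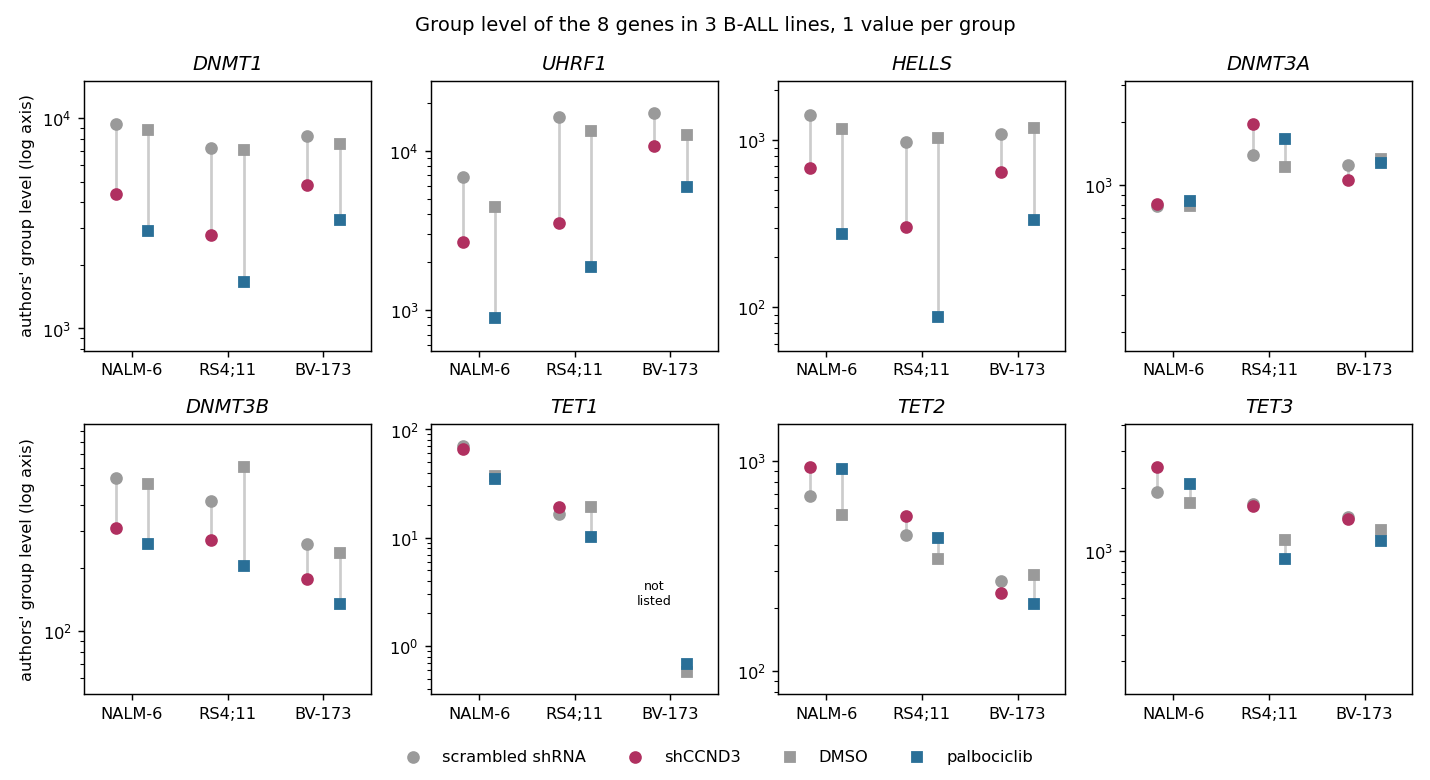
Level of each gene as given by the authors for each group (vertical, log axis, scaled within a pair of groups), with the lines on the horizontal axis. Circles are scrambled shRNA (grey) and shCCND3 (red), squares are DMSO (grey) and palbociclib (blue), and grey bars join the groups of 1 comparison. There is 1 value per group, so no error is drawn. The treated group is below its control in all 6 comparisons for *DNMT1*, *UHRF1*, *HELLS* and *DNMT3B*, and *TET1* in BV-173 lies at 0.578 and 0.679.

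Promoter windows of the members were read from RefSeq (GRCh38.p14), 250 bases before and 50 after those transcript starts that the table used here holds, because E2F factors are known to bind there in replication genes. All 8 genes had windows, 19 in all, but no window lies at the outermost start of *UHRF1*, *DNMT3B* or *TET3*, which was not searched. The windows of *DNMT1*, *UHRF1* (the most upstream of its 3) and *HELLS* are printed 5′ to 3′ on the gene strand, with the 1 window of *DNMT3B*, which lies inside the gene, beside them as a window with no match, and capitals mark E2F words.
DNMT1, chr19:10194904-10195203, minus strand: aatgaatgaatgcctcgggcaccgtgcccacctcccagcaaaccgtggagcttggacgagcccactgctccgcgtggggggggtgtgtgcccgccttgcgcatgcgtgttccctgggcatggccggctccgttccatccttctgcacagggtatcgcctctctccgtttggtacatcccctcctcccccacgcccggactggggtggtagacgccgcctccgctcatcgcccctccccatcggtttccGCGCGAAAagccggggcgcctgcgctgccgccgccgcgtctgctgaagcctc
UHRF1, chr19:4909251-4909550, plus strand: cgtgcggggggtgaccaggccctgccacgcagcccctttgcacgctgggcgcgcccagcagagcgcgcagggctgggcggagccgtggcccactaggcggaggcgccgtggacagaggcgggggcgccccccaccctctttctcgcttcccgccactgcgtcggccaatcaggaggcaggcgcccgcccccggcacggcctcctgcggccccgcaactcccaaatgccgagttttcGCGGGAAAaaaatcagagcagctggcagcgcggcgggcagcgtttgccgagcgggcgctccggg
HELLS, chr10:94545538-94545837, plus strand: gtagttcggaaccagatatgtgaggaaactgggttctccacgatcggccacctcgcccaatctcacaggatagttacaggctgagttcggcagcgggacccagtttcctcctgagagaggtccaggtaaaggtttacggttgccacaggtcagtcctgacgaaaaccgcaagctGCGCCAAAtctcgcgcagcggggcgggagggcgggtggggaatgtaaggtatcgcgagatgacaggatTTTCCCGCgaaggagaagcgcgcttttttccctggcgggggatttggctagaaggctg
DNMT3B, chr20:32779602-32779901, plus strand: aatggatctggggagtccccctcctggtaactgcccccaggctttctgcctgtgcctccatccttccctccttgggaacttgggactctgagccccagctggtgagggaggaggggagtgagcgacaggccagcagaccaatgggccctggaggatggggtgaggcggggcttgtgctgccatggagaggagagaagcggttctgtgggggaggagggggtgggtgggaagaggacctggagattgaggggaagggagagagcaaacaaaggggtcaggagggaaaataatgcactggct

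The words searched were TTTCCCGC, TTTCGCGC, TTTGCCGC and TTTGGCGC on both strands. *DNMT1* holds TTTCGCGC on the opposite strand, beginning 2 bases before the annotated start and running across it. *UHRF1* holds TTTCCCGC on the opposite strand 14 bases before the start, and a second window of this gene, at chr19:4909894-4910193, holds TTTCGCGC on the gene strand 160 bases before its own start. *HELLS* holds TTTCCCGC on the gene strand 8 bases before the start and TTTGGCGC on the opposite strand at 76 bases. Thus 3 of the 8 genes had an E2F word, compared with 3.99% of the 27305 genes and 3.31% of the 35116 windows in the table. None of the windows of *DNMT3A*, *DNMT3B*, *TET1*, *TET2* and *TET3* held these letters. CCAAT, the letters bound by NF-Y, were found on either strand in windows of 5 members and of 39.7% of all genes, and TTTGAA, the core of the CHR element, in windows of 2 members (*DNMT3A* and *TET2*) and of 18.2% of all genes. These matches are a description of letters and were not tested as binding sites.

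*DNMT1* (chromosome 19, 10133346 to 10194953) was the most evenly lowered maintenance gene. After knockdown its level was 9404 with scrambled shRNA and 4380 with shCCND3 in NALM-6, 7198 and 2781 in RS4;11, and 8232 and 4828 in BV-173. With palbociclib it went from 8844 to 2911 in NALM-6, from 7098 to 1663 in RS4;11 and from 7533 to 3300 in BV-173. The 6 treated levels all lie below the 6 control levels, and RS4;11 had the lowest treated level under either treatment. Knockdown left 46.6% of the NALM-6 control level, 38.6% of that of RS4;11 and 58.6% of that of BV-173, and palbociclib left 32.9%, 23.4% and 43.8%. Over the 3 lines the mean log2 difference was -1.08 after knockdown (SE 0.13, limma adjusted p = 0.0176) and -1.63 with palbociclib (SE 0.19, limma adjusted p = 0.00792).

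*UHRF1* (chromosome 19, 4903080 to 4962154) differed most between the lines after knockdown. In NALM-6 it went from 6802 to 2676 after knockdown and from 4462 to 886 with palbociclib. In RS4;11 it went from 16323 to 3498 and from 13239 to 1862. In BV-173 it went from 17163 to 10654 and from 12603 to 5943, so the level in BV-173 after knockdown was above the control levels of NALM-6, in tables that were scaled separately. Knockdown lowered *UHRF1* 4.67-fold in RS4;11, where 10 of the 15944 genes listed were lowered further, but 1.61-fold in BV-173, where 423 genes were. The mean log2 difference was -1.42 after knockdown (SE 0.24, limma adjusted p = 0.0225) and -2.08 with palbociclib (SE 0.32, limma adjusted p = 0.0130). The SD over the lines was 0.77 and 0.90, wider than the 0.30 and 0.45 of *DNMT1*.

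*HELLS* (chromosome 10, 94545788 to 94613905) had the largest mean response to palbociclib of the 7 members tested. It went from 1412 to 678 after knockdown and from 1161 to 273 with palbociclib in NALM-6. In RS4;11 the levels were 972 and 302 after knockdown, and 1036 and 87.9 with palbociclib. In BV-173 they were 1089 and 643, and 1185 and 333. All control levels lie between 972 and 1412, and all treated levels between 87.9 and 678. The lowest, in RS4;11 with palbociclib, is 8.49% of its DMSO level, or 11.8-fold lower, and 154 of the 15857 genes listed there were lowered further. The mean log2 difference was -1.17 after knockdown (SE 0.18, limma adjusted p = 0.0189) and -2.49 with palbociclib (SE 0.33, limma adjusted p = 0.0101).

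**Figure D2:**
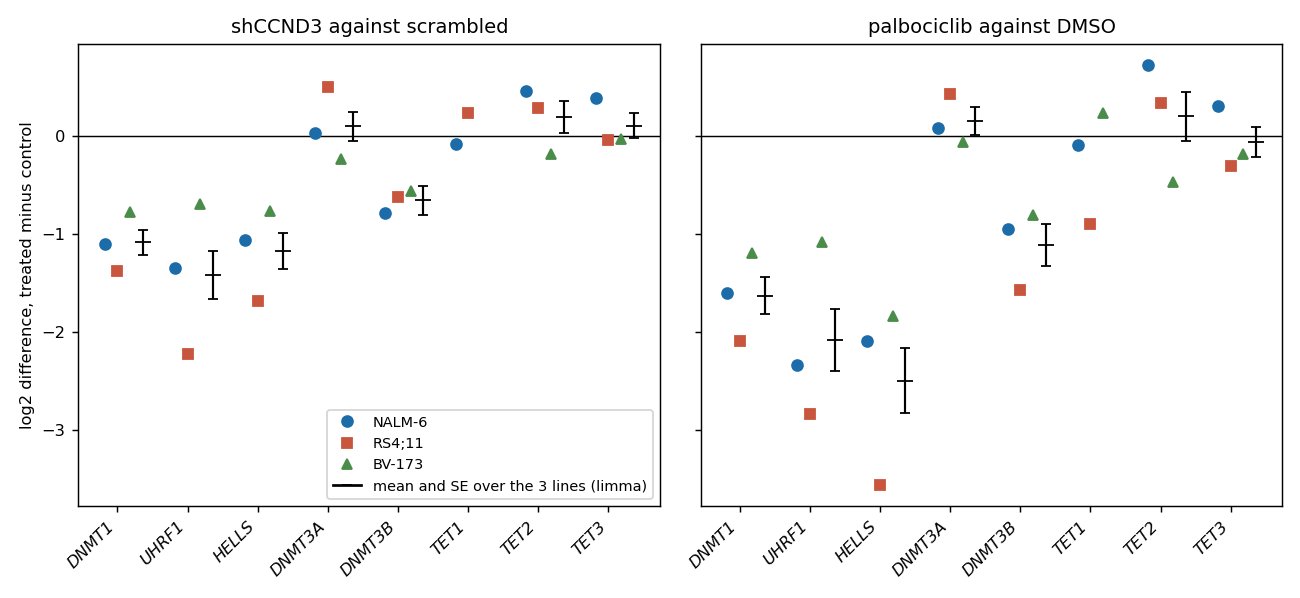
Log2 difference between treated and control level (vertical) for the 8 genes (horizontal), after *CCND3* knockdown (left) and with palbociclib (right). Coloured symbols are the 3 lines, and black bars are the mean over the lines with its SE from limma, drawn for the 7 genes listed in all 6 tables. For *DNMT1*, *UHRF1*, *HELLS* and *DNMT3B* the 3 lines lie below 0 under both treatments, and for *TET2* they lie on both sides of 0.

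Set against all genes, 4 of 7 members tested fell after knockdown at an adjusted p under 0.1 in limma, where 7.48% of the 13307 genes did, and none rose, where 4.95% did. With palbociclib the same 4 members fell, where 13.6% of genes did, and none rose, where 11.2% did. None of the 3 members that were not called passed an unadjusted p of 0.05 under either treatment. These p-values rest on the spread between the 3 lines, moderated by limma with that of other genes, and not on the spread between samples. The degrees of freedom were 7.67 after knockdown and 6.27 with palbociclib, of which the lines themselves give 2. The members were chosen with earlier results of these data known, so their shares are a description. In the single tables, a change of at least 1.5-fold is used as a description with no test. After knockdown 4 of 8 members were lower by this fold in NALM-6 (8.47% of genes), 4 of 8 in RS4;11 (9.72%) and 3 of 7 in BV-173 (4.78%), with *DNMT3B* just short of it in BV-173 at 1.47-fold. No member was higher by this fold after knockdown, where 7.82% (NALM-6), 9.73% (RS4;11) and 3.32% (BV-173) of genes were. With palbociclib 4 of 8 members were lower in NALM-6 (14.9% of genes), 5 of 8 in RS4;11 (15.0%, *TET1* being the additional member) and 4 of 8 in BV-173 (11.9%). The only member higher by this fold was *TET2* in NALM-6 with palbociclib, where 21.4% of genes were, and none was in RS4;11 (16.7%) or BV-173 (13.6%).

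BV-173 showed the smallest reduction of *DNMT1*, *UHRF1*, *HELLS* and *DNMT3B* under both treatments. It also had the highest share of *CCND3* left after knockdown and the fewest genes lowered at least 1.5-fold by it, 705 compared with 1305 in NALM-6 and 1550 in RS4;11, and the part of these in the smaller reduction was not tested. RS4;11 showed the largest reduction of *DNMT1*, *UHRF1* and *HELLS* under both treatments and of *DNMT3B* with palbociclib, and NALM-6 that of *DNMT3B* after knockdown. With 1 value per group these differences between lines were not tested.

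Knockdown and palbociclib were compared within each line by subtracting the log2 difference with palbociclib from that after knockdown, so that a positive value means a smaller loss after knockdown. The groups of the comparisons are separate, each treatment having its own control. For *HELLS* the value was 1.03 for NALM-6, 1.87 for RS4;11 and 1.07 for BV-173, with a mean of 1.33 (SE 0.19, limma adjusted p = 0.0168). For *UHRF1* it was 0.99, 0.61 and 0.40, with a mean of 0.66 (SE 0.14, limma adjusted p = 0.0430). For *DNMT1* it was 0.50, 0.72 and 0.42, with a mean of 0.55 (SE 0.11, limma adjusted p = 0.0414). All 9 values of the maintenance genes are positive, so palbociclib lowered each of them further in every line. In all, 3 of 7 members were called in this direction, where 7.16% of genes were, and none in the other, where 4.16% were. Most of the maintenance partners and of the G1/S genes, given below, were called in this direction too.

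The calls of this comparison are less firm than those of the treatments. Without a trend of the variance on the level, limma called none of the 3, with adjusted p = 0.160 for *DNMT1*, 0.161 for *UHRF1* and 0.114 for *HELLS*. The *HELLS* call held whichever line was left out, but *DNMT1* had adjusted p = 0.105 without NALM-6 and 0.168 without RS4;11, and *UHRF1* 0.128 and 0.109. *DNMT3B* differed in the same direction in all 3 lines, by 0.16, 0.95 and 0.25, without being called (mean 0.45, 95% interval -0.04 to 0.95, limma adjusted p = 0.244). For *DNMT3A*, *TET2* and *TET3* the means were -0.05 (95% interval -0.32 to 0.22), -0.01 (-0.40 to 0.38) and 0.17 (-0.09 to 0.42). The depth of the knockdown, the dose of the drug and the day of collection all differ between the treatments and cannot be told apart here.

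**Figure D3:**
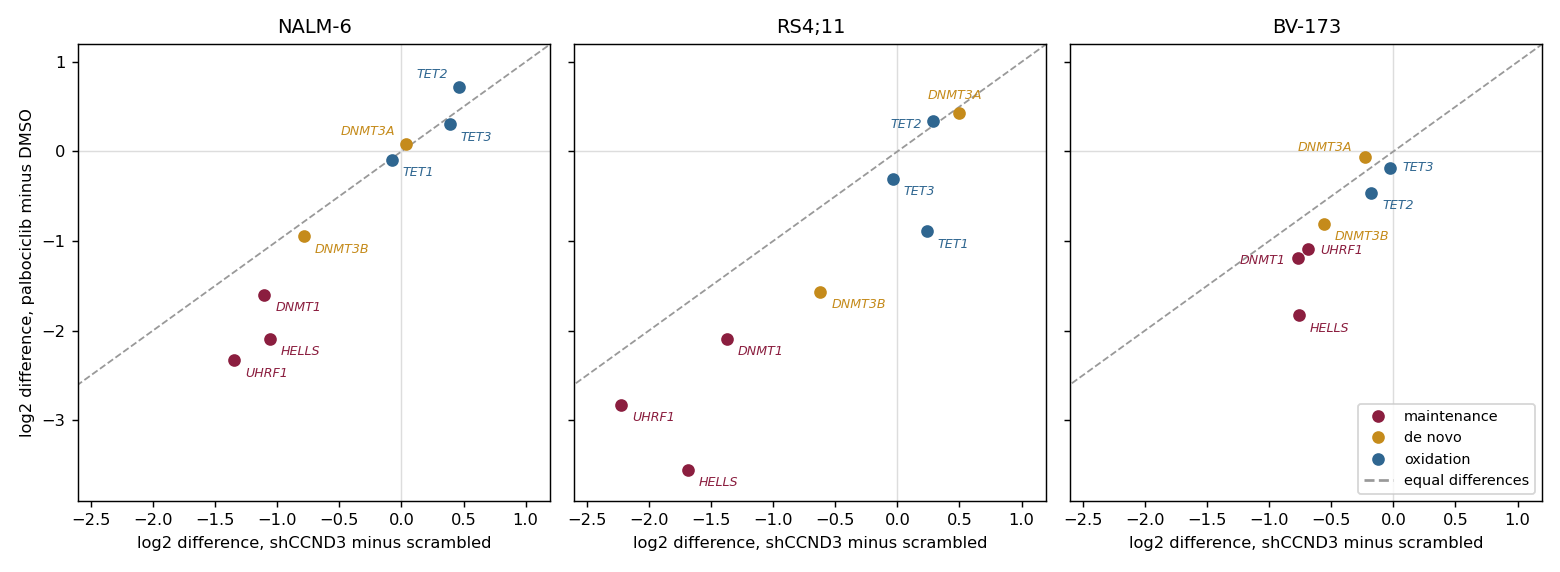
Log2 difference after *CCND3* knockdown (horizontal) and with palbociclib (vertical) for each member, 1 panel per line and 1 point per gene, coloured by role, with a dashed line where both are equal. The maintenance genes lie below the dashed line in every line, furthest for *HELLS* in RS4;11 at -1.68 and -3.56, and *DNMT3A* lies within 0.17 of it.

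The de novo enzymes parted. With scrambled shRNA and shCCND3, *DNMT3B* (chromosome 20, 32762385 to 32809356) was at 536 and 311 for NALM-6, 417 and 272 for RS4;11, and 261 and 178 for BV-173. With DMSO and palbociclib it was at 505 and 262, 605 and 204, and 237 and 136 in the same lines. Every treated level is below its own control, although the control level in BV-173 is below the treated levels of NALM-6. *DNMT3B* fell under both treatments, with mean log2 differences of -0.65 after knockdown (SE 0.15, limma adjusted p = 0.0458) and -1.11 with palbociclib (SE 0.21, limma adjusted p = 0.0232). The call after knockdown was lost when NALM-6 (adjusted p = 0.194) or RS4;11 (adjusted p = 0.191) was left out, with means of -0.59 and -0.67.

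*DNMT3A* (chromosome 2, 25227874 to 25342590) showed no common direction. It was at 797 and 817 after knockdown and 798 and 844 with palbociclib in NALM-6, which is near equal. In RS4;11 the treated level was the higher in both comparisons, 1386 against 1954 and 1224 against 1648. In BV-173 it was the lower in both, 1244 against 1060 and 1331 against 1280. The mean log2 difference was 0.10 after knockdown (95% interval -0.25 to 0.45, limma adjusted p = 0.744) and 0.15 with palbociclib (-0.20 to 0.50, limma adjusted p = 0.504). A change of 1.5-fold in the mean over the lines lies outside both intervals, which use the variance moderated by limma. The 3 lines alone, with SDs of 0.37 after knockdown and 0.25 with palbociclib, would give wider intervals. Whether 1.5-fold lies outside those was not tested.

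The balance of the enzymes differed between treated and control groups. Per length of transcript, the level of *DNMT3A* over that of *DNMT3B* was 1.67 with scrambled shRNA and 2.95 with shCCND3 for NALM-6, 3.75 and 8.12 for RS4;11, and 5.73 and 7.19 for BV-173. With DMSO and palbociclib it was 1.81 and 3.69, 2.24 and 8.95, and 6.29 and 10.6. The ratio was higher in the treated group in all 6 comparisons. The per-length level of *DNMT1* over *DNMT3A* went the other way, lying between 3.51 and 7.88 in the control groups and between 0.686 and 3.58 in the treated ones. In RS4;11 it was under 1, at 0.962 after knockdown and 0.686 with palbociclib, so that *DNMT3A* was there at the higher level. The ratio of *DNMT1* to *UHRF1* was higher in the treated groups of NALM-6 and RS4;11, for example 1.55 with DMSO and 2.57 with palbociclib in NALM-6, but was 0.440 and 0.409 in BV-173. These ratios are values of single groups with no test.

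No *TET* gene was called where it was tested. *TET2* (chromosome 4, 105145875 to 105279803), the *TET* gene most often mutated in blood cancers, was at 680 and 938 after knockdown and 556 and 919 with palbociclib in NALM-6. In RS4;11 it was at 448 and 546, and at 342 and 432. In BV-173 it was at 268 and 237, and at 289 and 210. The treated level was the higher in NALM-6 and RS4;11 and the lower in BV-173, under both treatments. The mean log2 difference was 0.19 after knockdown (95% interval -0.19 to 0.57, limma adjusted p = 0.535) and 0.20 with palbociclib (-0.40 to 0.80, limma adjusted p = 0.611), and a 1.5-fold higher mean lies within the second of these intervals.

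*TET3* (chromosome 2, 73983631 to 74135498) was at the highest level per length of the 3 *TET* genes. In NALM-6 it was higher in the treated group, at 1919 and 2515 after knockdown and 1699 and 2096 with palbociclib. After knockdown it was near equal in RS4;11 (1683 and 1640) and BV-173 (1460 and 1429). With palbociclib it was lower in both, at 1130 and 914 in RS4;11 and 1263 and 1115 in BV-173. The mean log2 difference was 0.11 after knockdown (95% interval -0.18 to 0.39, limma adjusted p = 0.653) and -0.06 with palbociclib (-0.44 to 0.32, limma adjusted p = 0.816).

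*TET1* (chromosome 10, 68560337 to 68694487) was the lowest member throughout. It was at 69.9 and 66.2 after knockdown and 37.5 and 35.2 with palbociclib in NALM-6. In RS4;11 it was at 16.4 and 19.4, and at 19.1 and 10.3. In BV-173 it was at 0.578 with DMSO and 0.679 with palbociclib, near the bottom of these tables, whose lowest level was 0.145. The RS4;11 value with palbociclib is a 1.86-fold lower level and rests on a gene at a low level. Among the 13788 genes listed in the 3 palbociclib tables, which include *TET1*, its mean log2 difference was -0.25 (SE 0.34, limma adjusted p = 0.651).

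In the control groups the members spanned a wide range per length of transcript. The levels were divided by the gene length in each table and expressed as ppm of the sum over the genes listed in all 6 tables. With scrambled shRNA and DMSO, *UHRF1* was at 206 and 114 ppm for NALM-6, 461 and 355 for RS4;11, and 461 and 340 for BV-173. *DNMT1* was at 214 and 177, 150 and 141, and 162 and 150 ppm in the same order. These are the highest members, and *UHRF1* exceeded *DNMT1* in RS4;11 and BV-173 but not in NALM-6. *HELLS* lay between 35.1 and 55.5 ppm and *DNMT3A* between 24.2 and 42.9 ppm, with overlapping ranges. *TET3* lay between 10.6 and 20.8 ppm and *DNMT3B* between 6.24 and 16.3 ppm, which overlap as well. *TET2* lay between 2.97 and 8.61 ppm. *TET1* was lowest, with at most 0.900 ppm in NALM-6 and 0.213 ppm in RS4;11, and 0.00647 ppm in BV-173 with DMSO.

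**Figure D4:**
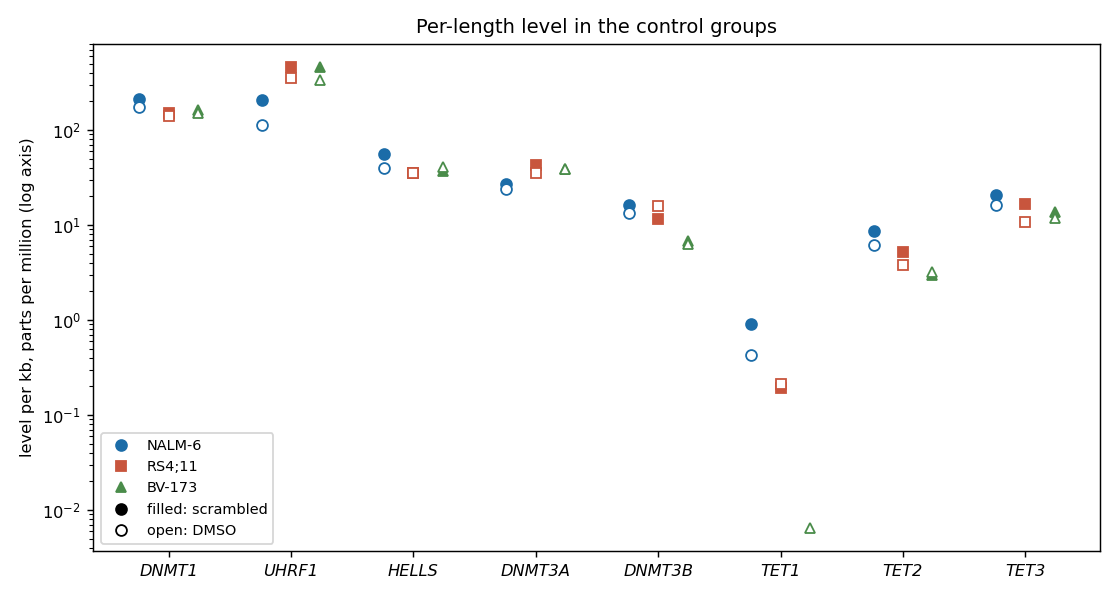
Level per kb of transcript in the control groups as ppm of the sum over genes listed in all 6 tables (vertical, log axis) for the 8 genes (horizontal). Colours and shapes are the lines, filled symbols scrambled shRNA and open symbols DMSO, with 1 value per group. *UHRF1* in RS4;11 and BV-173 lies between 340 and 461 ppm, above both NALM-6 groups at 114 and 206 ppm, and *TET1* is lowest in each line.

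The lines differed in several members by more than the 2 control groups of any 1 line differed from each other. Averaged over the controls, *UHRF1* was 2.64-fold higher in RS4;11 and 2.58-fold higher in BV-173 than in NALM-6, where the largest gap between the controls of a line was 0.85 on the log2 scale. *DNMT3A* was 1.52-fold higher in both. *TET2* was 1.65-fold lower in RS4;11 and 2.37-fold lower in BV-173, and *DNMT3B* was 2.28-fold lower in BV-173. *DNMT1* was 1.34-fold lower in RS4;11 and 1.25-fold lower in BV-173, but scaled to the median gene the BV-173 difference shrank from -0.32 to -0.07 on the log2 scale. For *HELLS* and *TET3*, and for *DNMT3B* in RS4;11, the lines differed by less than the controls did. The 2 NALM-6 controls were apart by 0.25 (median log2 over genes) on this scale, and the tables were normalized separately, so these levels are a description.

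Other genes of the pathway were taken from lists by function, written with earlier results of these data known. Of 8 partners of maintenance methylation, 5 fell after knockdown, beside 7.48% of all genes, and none rose, with a median log2 difference of -0.66 beside 0.00 for all genes. With palbociclib 7 of 8 fell, beside 13.6% of all genes, and none rose, with a median of -1.30 beside 0.04. *PCLAF*, the PCNA-associated factor that UHRF1 ubiquitinates, fell under both, with mean log2 differences of -1.34 after knockdown and -3.55 with palbociclib. The replication ligase *LIG1* (-1.17 and -2.45) and the sliding clamp *PCNA* (-1.12 and -2.53) fell as well. *CDCA7*, which works with HELLS, and *UHRF2*, the paralog of *UHRF1*, also fell after knockdown. These and *CDCA7L* and *USP7* fell with palbociclib, and *ZBTB24* was not called under either treatment.

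**Figure D5:**
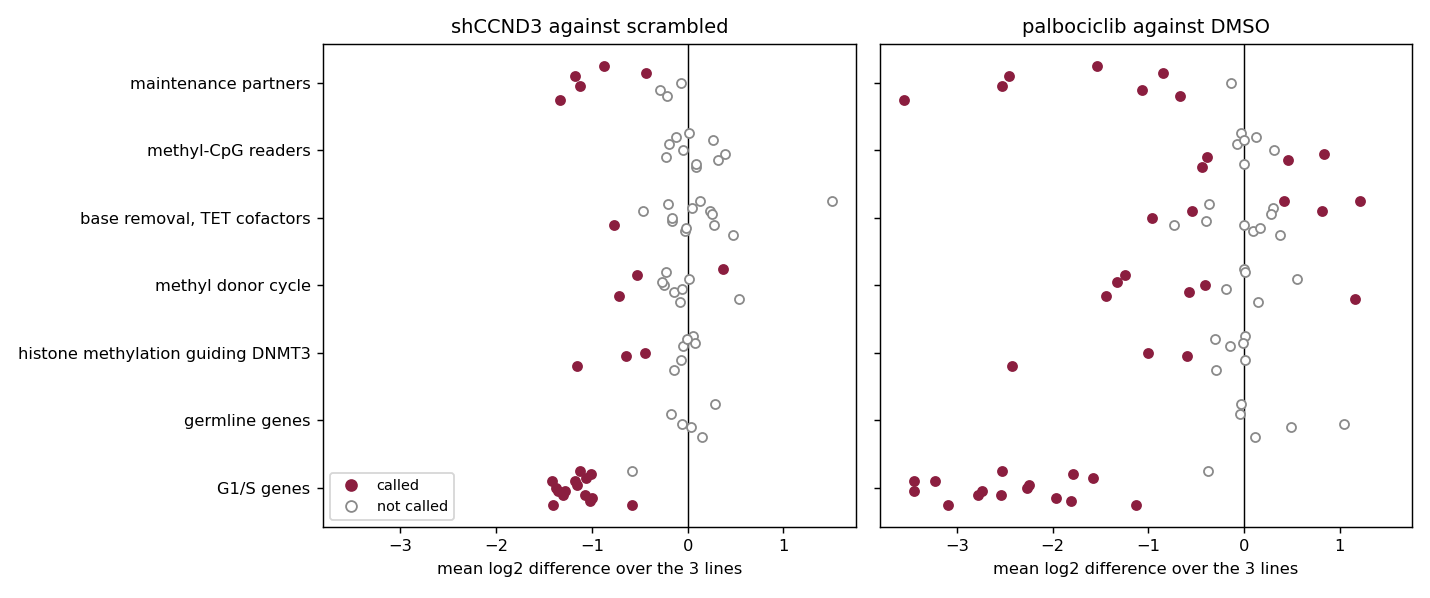
Mean log2 difference over the 3 lines (horizontal) for each gene of 7 lists that was listed in all 6 tables, after *CCND3* knockdown (left) and with palbociclib (right). Filled red points were called at an adjusted p under 0.1 in limma and open grey points were not, and the vertical spread within a list has no meaning. The maintenance partners and the G1/S genes lie to the left of 0 under both treatments, and called genes of the reader and base removal lists lie on both sides of 0 with palbociclib.

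The G1/S genes were used as a reference for entry into S phase, and 15 of 16 fell under each treatment, beside 7.48% and 13.6% of all genes, with a median log2 difference of -1.14 after knockdown and -2.40 with palbociclib. The replication factors *CDC45*, *CDC6* and *MCM4* fell most after knockdown (mean log2 differences of -1.42, -1.41 and -1.37), and *TYMS*, *CDC45* and *RRM2* most with palbociclib (-3.45, -3.45 and -3.23). *CCNE1* was the gene not called in either. *PCNA* is in this list and in that of the partners. The mean differences of the maintenance members lie between -1.08 and -1.42 after knockdown and between -1.63 and -2.49 with palbociclib. For knockdown minus palbociclib, 15 of 16 G1/S genes and 6 of 8 partners were called with a positive value, beside 7.16% of all genes. Their medians were 1.24 and 0.72, beside means of 0.55 for *DNMT1*, 0.66 for *UHRF1* and 1.33 for *HELLS*. Whether the members changed apart from the share of cells in S phase was not tested.

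Among the genes of histone methylation that guides DNMT3 enzymes, 3 of 9 tested fell under each treatment and none rose, beside 7.48% and 13.6% of all genes that fell, with medians of -0.07 and -0.29 beside 0.00 and 0.04. *NSD2*, an H3K36 methyltransferase, fell under both treatments, with mean log2 differences of -1.16 after knockdown and -2.42 with palbociclib, as did its relative *NSD3* (-0.45 and -1.004). *KMT2A*, the MLL gene that is itself fused in RS4;11, fell as well (-0.64 and -0.60). In the methyl donor cycle 2 of 11 genes fell and 1 rose after knockdown, and 5 fell with palbociclib, beside 7.48% and 13.6% of all genes that fell, with medians of -0.15 and -0.19. The serine hydroxymethyltransferase *SHMT1* (-0.71 and -1.44) and the folate enzyme *MTHFD1* (-0.53 and -1.25) fell under both treatments, and *SHMT2* (-1.33), *AHCYL1* (-0.58) and *MTR* (-0.41) fell with palbociclib. *AHCY*, which clears the S-adenosylhomocysteine left by methyltransferases, rose by 0.37 after knockdown.

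Among genes that read or remove methylation, those called with palbociclib went in both directions. None of 10 methyl-CpG readers was called after knockdown in limma, and none had an unadjusted p under 0.05. Of all genes, 7.48% fell and 4.95% rose after knockdown, so a count of 0 among 10 is near these shares. With palbociclib *MBD4* (-0.44) and *MBD2* (-0.39) fell, beside 13.6% of all genes. *MBD5* (0.84) and *ZBTB4* (0.45) rose, beside 11.2% of all genes. Of 14 genes of base removal and TET cofactors tested, 1 fell after knockdown, the uracil glycosylase *UNG* (-0.77), a share near the 7.48% of all genes. With palbociclib 2 fell, again near the 13.6% of all genes, *IDH2*, which makes the TET cosubstrate 2-oxoglutarate in mitochondria (-0.96), and *XRCC1* (-0.54). The CXXC-domain gene *CXXC5* and the glycosylase *TDG* rose by 0.81 and 0.42. Germline genes whose promoters are usually methylated were mostly outside the test, since 5 of 24 were listed in all 6 tables. None of these 5 was called by limma under either treatment, with 0 and 1 at an unadjusted p under 0.05 after knockdown and with palbociclib. They are too few to read against the shares of all genes.

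The genes most like each member were sought by the root mean square distance over the 6 log2 differences of the 3 lines and both treatments. Nearest to *DNMT1* were the cohesin gene *SMC1A*, *ERI2* and *ZNF724*, at distances of 0.09, 0.10 and 0.12. *UHRF1* had *RFC5*, a subunit of the clamp loader, at 0.22, then *WDR62* and *GGH* at 0.25 each. *HELLS* was followed by the helicase *BRIP1* at 0.12, *LIG1* at 0.14 and *ECT2* at 0.17. *UHRF1* was the most isolated of the members, with 1 gene within 0.25, compared with 37 for *DNMT1*, 12 for *HELLS* and 49 for *DNMT3B*. Nearest to *DNMT3B* were *MBOAT1*, *MRE11* and *NUP205*, at 0.09, 0.12 and 0.14. *DNMT3A* (*UBXN11*, *RIT1* and *DCTN1*), *TET2* (*MAP10*, *LRP2BP* and *DCAF5*) and *TET3* (*TBC1D24*, *KDM8* and *CDK13*) had 553, 146 and 848 genes within this distance.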

How the data were processed

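Total RNA of 34 samples (3 B-ALL lines, 12 groups) was enriched with oligo dT and sequenced. Per the submitters' notes, SOAPnuke served for read filtering, Bowtie2 for mapping to hg38, RSEM for gene levels and DESeq2 for comparing groups. The versions are not given in the sources used here. Each of the 6 deposited tables holds a signal per gene for each group of a pair, in which the samples of the group are combined and scaled within the pair, and a gene length. The authors' log2 fold changes and p-values in the same tables were not used. In these tables genes with levels under 5 had a narrower spread of log2 differences (SD 0.20 to 0.70) than genes with levels of 50 to 500 (0.39 to 0.99). Whether the signals were derived from shrunken fold changes is not given in the sources used here, and if so the differences of low genes would be understated.

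The log2 difference of the group signals was computed within each table with no pseudocount. The 3 lines were the units of limma 3.58.1 (R 4.3.3), which tested the mean difference against 0 with a variance trend, and Benjamini-Hochberg adjustment over the 13307 genes listed in all 6 tables, called at an adjusted p under 0.1. Nothing states that samples of a group came from separate cultures. Tables were read with Python 3.11.15 and pandas 2.3.3. The fit was also run on simulated independent normal values with the gene SDs of the knockdown fit, and the outcome of that run is not used here. Gene positions and promoters are RefSeq's, GRCh38.p14. Groups follow the labels. Named genes are the members, *CCND3*, up to 3 called genes of each list with the largest mean difference, and the 3 nearest genes of each member. *XRCC1*, *TDG*, *MBD2*, *CDCA7*, *CDCA7L*, *USP7*, *AHCYL1*, *MTR*, *UHRF2*, *ZBTB24* and *CCNE1* were named after their values were seen, to account for small counts, and some genes of the lists are not reported here. The members and the lists were chosen with earlier results of these data known. Alternatives were a pseudocount of 1, a minimum level of 10, centring on the median, limma without the trend, leaving out a line, an adjusted p under 0.05, a 2-fold limit and, chosen after seeing the data, the genes listed in the 3 tables of a treatment.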

Additional observations from a re-analysis of the deposited data

Results flagged for a closer look

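*TET2* and *TET3* moved in opposite directions in different lines with palbociclib. For *TET2* the log2 difference in NALM-6 (0.72) and that in BV-173 (-0.46) lay 1.19 apart, and for *TET3* those in NALM-6 (0.30) and RS4;11 (-0.30) lay 0.61 apart. With 1 value per group, neither difference between lines was tested. Opposite directions of at least 1.2-fold in a pair of lines were found for 13.9% of the 13788 genes listed in the 3 palbociclib tables and for 10.3% of the 13877 genes in the 3 knockdown tables.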

How the results depend on the processing

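The 4 members called lower after knockdown and the 4 with palbociclib were called with a pseudocount of 1, a minimum level of 10, centring on the median of each table, limma without the variance trend, an adjusted p under 0.05 and the genes listed in the 3 tables of a treatment. With a line left out these counts were 3 to 4 after knockdown and 4 with palbociclib. The 3 members lowered further by palbociclib than by knockdown became 0 without the variance trend and 1 to 3 with a line left out. At a 2-fold limit 0 members were lower after knockdown in BV-173 and 0 were higher with palbociclib in NALM-6. Among members that were not called, the mean log2 difference changed sign with a line left out, ranging after knockdown from -0.034 to 0.18 for *TET3* and from -0.098 to 0.27 for *DNMT3A*, and with palbociclib from -0.062 to 0.53 for *TET2* and from -0.24 to 0.061 for *TET3*. The knockdown minus palbociclib difference ranged from -0.16 to 0.12 for *TET2* and from -0.11 to 0.010 for *DNMT3A*. The log2 difference of *TET1* with palbociclib in BV-173 went from 0.23 to 0.09 with a pseudocount of 1, as its level is under 1. Over all genes the calls after knockdown numbered 1655, or 841 at an adjusted p under 0.05, 830 without the trend and 492 without RS4;11. With palbociclib they numbered 3305, or 1965 at 0.05 and 1758 without NALM-6. For the difference of the treatments they numbered 1507, or 650 at 0.05, 70 without the trend and 480 without NALM-6. Genes higher with palbociclib in NALM-6 went from 3338 to 1922 when both levels had to be at least 10. Genes past a 2-fold limit numbered 72 to 623 lower and 66 to 502 higher after knockdown, and 737 to 1121 lower and 705 to 1783 higher with palbociclib. No paired analysis was possible because the tables hold 1 value per group, and the cause of these changes was not tested. The depth per sample and the spread between samples are not seen in the group levels. The authors' p-values for each line were not used, so a change within 1 line is not set against its error here.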
